A study of Homo sapiens with 6 samples.

Results

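The 59 genes described here encode kinases, kinesins, cytokinesis proteins and other proteins that act while a cell divides. They were picked by symbol in the deposited gene tables, and all 59 were found among the 26286 genes listed there. All of them also passed the filter on low counts, so the members below are 59 of the 14839 genes tested.

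RNA was sequenced from HT-1080 cells, a human fibrosarcoma line, after 48 h of treatment, with 2 libraries per treatment. One group received 2 µM palbociclib, which inhibits the cyclin D-dependent kinases CDK4 and CDK6. Another received 500 nM pimasertib, which inhibits MEK1 and MEK2, the kinases that activate ERK. The third group received the vehicle DMSO, and all groups are this same line, with no engineered allele named in the labels. Nothing in the labels ties the numbered libraries to separate cultures; p-values here are therefore set against a spread between libraries that may be only technical.

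Library totals ran from 13607490 to 17500655 counts, and 3 counts in a library corresponded to 0.168 to 0.22 CPM (library-scaled counts on the usual CPM scale). Of 12 mesenchymal markers, 10 were above that floor in every library, and their summed level was 5495 and 7744 CPM with palbociclib, 11448 and 15154 with pimasertib and 3568 and 5208 with DMSO. Among markers of other cell types, CDH1 and PTPRC were at 0 in 5 of 6 libraries, EPCAM did not exceed 0.28 CPM, and the leukocyte list summed to 3.89 to 7.09 CPM. The endothelial list summed to 263 and 343 CPM with palbociclib, 135 and 189 with pimasertib and 132 and 221 with DMSO, and 3 of its 8 genes were above the floor in every library. Nearly all of this sum was TIE1 alone (262 and 341, 134 and 188, and 130 and 219 CPM), while CDH5 did not exceed 0.304 CPM, CLDN5 0.203 and VWF 0.0647. The epithelial list also had 3 of 10 genes above it, and summed to 378 and 467 CPM, 627 and 395 CPM and 351 and 311 CPM in the same order of treatments. Genes of RNA stress summed to 777 and 832 CPM, 763 and 689 CPM and 1052 and 952 CPM, and the 13 mitochondrially encoded genes to 45602 and 61843 CPM, 41641 and 88760 CPM and 32663 and 57703 CPM, higher in replicate 2 of each treatment. Whether these levels bear on the mitotic genes was not tested.

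Transcripts of these genes are made mainly from late S phase to mitosis. Promoters of such genes often carry a cell cycle genes homology region (CHR), read by the MuvB complex: with the pocket proteins p107 and p130 it forms the repressor DREAM, and with B-MYB and FOXM1 it forms activators. A CCAAT box, bound by NF-Y, commonly lies upstream of the CHR, whereas E2F sites are typical of genes for DNA replication. RB and the pocket proteins are substrates of cyclin-dependent kinases, and ERK signalling raises cyclin D, so both drugs act above this system. In bulk RNA, fewer cells in G2 and mitosis and less RNA per such cell cannot be told apart.

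RefSeq promoters of build GRCh38.p14 were matched to 50 of the 59 members, which have 63 annotated starts. Those printed here are the 120 bases before the start of 7 genes that the results turn on, 5′ to 3′ on the gene's own strand. Capitals mark motifs, each searched on both strands. The CHR was searched as TTTGAA and in its less common spelling TTCGAA, and the E2F site as TTTCCCGC, TTTCGCGC, TTTGCCGC or TTTGGCGC. The CCAAT box was searched by the letters of its name, and reads ATTGG where it lies on the other strand. PLK1 (chr16:23678769-23678888, plus strand) and CCNB2 (chr15:59105026-59105145, plus strand) had nearly equal levels in both drugs. ESPL1 (chr12:53268179-53268298, plus strand) and KIF23 (chr15:69414229-69414348, plus strand) were lower with palbociclib than with pimasertib. All 4 of these windows hold a CHR with a CCAAT box upstream of it.
PLK1: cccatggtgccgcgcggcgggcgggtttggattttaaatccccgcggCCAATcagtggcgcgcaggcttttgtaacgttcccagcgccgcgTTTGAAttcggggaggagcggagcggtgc
CCNB2: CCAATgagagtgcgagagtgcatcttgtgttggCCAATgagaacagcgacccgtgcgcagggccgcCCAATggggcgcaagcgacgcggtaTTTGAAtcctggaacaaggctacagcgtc
ESPL1: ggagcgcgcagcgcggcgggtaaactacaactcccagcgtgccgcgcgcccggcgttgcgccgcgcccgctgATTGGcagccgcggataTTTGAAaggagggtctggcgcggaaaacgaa
KIF23: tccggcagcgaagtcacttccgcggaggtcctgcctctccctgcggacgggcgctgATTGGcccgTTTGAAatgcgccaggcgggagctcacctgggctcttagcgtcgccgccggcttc

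CCNA2 (chr4:121823884-121824003, minus strand) and KIF20A (chr5:138178992-138179111, plus strand) had the lowest ratios of palbociclib to pimasertib among the 59 genes, and CDC25A (chr3:48188418-48188537, minus strand) the highest. Their windows hold CCAAT boxes but no match to TTTGAA or TTCGAA, and that of CDC25A also holds an E2F site. Other spellings of the CHR were not searched, so the element may still be present. ASPM and KIF18B, with the next lowest ratios (log2 fold change -1.11 each), had a CHR in the wider window described below.
CCNA2: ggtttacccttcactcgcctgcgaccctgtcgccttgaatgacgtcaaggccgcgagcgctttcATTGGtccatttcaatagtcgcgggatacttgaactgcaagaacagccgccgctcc
KIF20A: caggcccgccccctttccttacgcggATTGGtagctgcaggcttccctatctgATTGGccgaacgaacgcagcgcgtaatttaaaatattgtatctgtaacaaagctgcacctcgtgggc
CDC25A: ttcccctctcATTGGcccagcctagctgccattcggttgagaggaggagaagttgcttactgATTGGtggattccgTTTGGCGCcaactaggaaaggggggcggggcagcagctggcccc

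In windows from 250 bases before to 50 after the start, a CHR was found in 66.7% of the 63 member promoters and in 16.4% of all 35116 RefSeq promoters. A CCAAT box was found in 71.4% of member promoters and 34.6% of all, and both motifs stood together in 54.0% against 6.38%. E2F sites were in 9.52% of member promoters and 3.31% of all. For promoters of a list of DNA replication and G1/S genes the shares were 4.35% for the CHR, 58.7% for the CCAAT box and 41.3% for the E2F site. Promoters of kinesins that carry cargo or have other roles held a CHR in 6.9%. Within the mitotic genes, those with and without a CHR match had similar medians against DMSO. The log2 fold change was -1.72 in the 38 with and -1.78 in the 12 without after palbociclib, and -1.26 in both sets after pimasertib. For palbociclib over pimasertib the median was -0.5 in the 38 with and -0.36 in the 12 without, a difference that was not tested. A match describes these letters in this window and is no evidence of binding, and a missing match does not show that a CHR is absent.

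**Figure D1:**
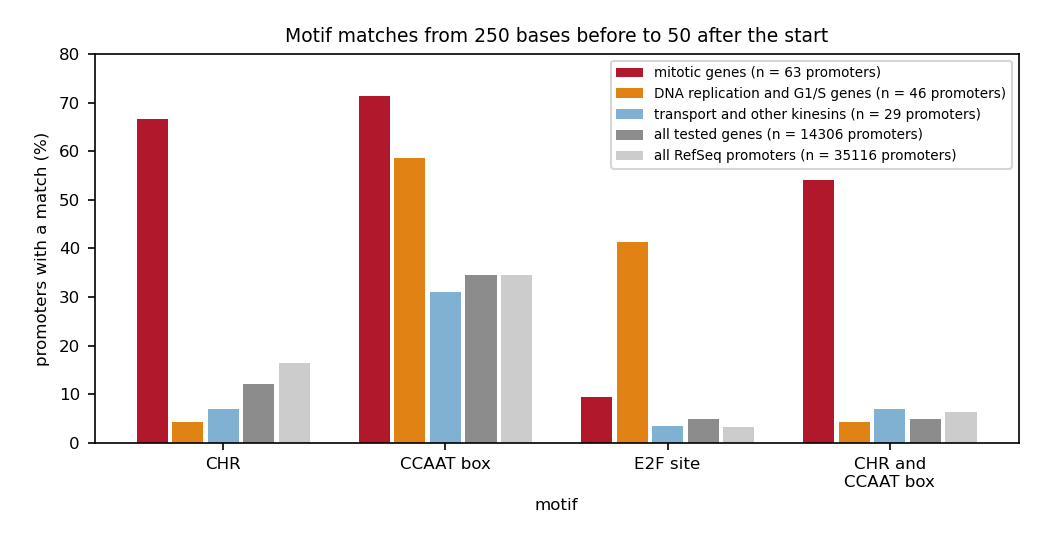
Share of promoters (%, y axis) with a match to each motif (x axis) from 250 bases before to 50 after the start, for the mitotic genes, 2 other gene lists, all tested genes and all RefSeq promoters. The CHR was in 66.7% of mitotic-gene promoters and 4.35% of replication-gene promoters, and the E2F site in 9.52% and 41.3%.

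Per length of transcript, the mitotic genes differed widely in level in DMSO. In the authors' FPKM, the spindle checkpoint target CDC20 led with 147 and 121 in the DMSO libraries, followed by TPX2 with 137 and 108 and the mitotic cyclin CCNB1 with 116 and 90.6. TPX2 overlapped each of the other two, while CDC20 and CCNB1 did not overlap. Further down, SMC4, ANLN, NCAPD2 and TOP2A overlapped each other, with mean FPKM between 68.8 and 69.9. At the low end were KIF18A with 7.8 and 7.04, KIF15 with 6.16 and 5.67, and CDC25C with 5.27 and 3.18 FPKM, and neither of the last 2 overlapped KIF18A.

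Both drugs lowered nearly the whole set. With palbociclib 55 of 59 members fell and 0 rose, where 2.44% of all tested genes fell and 1.11% rose (edgeR quasi-likelihood test, Benjamini-Hochberg adjusted p below 0.05 over all tested genes). With pimasertib 56 of 59 fell and 0 rose, against 11.7% and 11.1% of all tested genes. At an unadjusted p below 0.05, 0 members were higher in either comparison, where 8.4% of all tested genes were with palbociclib and 17.8% with pimasertib, and DESeq2 also called 0 higher. The median log2 fold change was -1.75 (3.36-fold lower; range -2.56 to -0.72) with palbociclib and -1.28 (2.42-fold lower; range -2.59 to -0.27) with pimasertib, where the median of all tested genes was 0.0 in both. Both comparisons use the same 2 DMSO libraries. Without pimasertib replicate 2, the count that fell with pimasertib was 25, and no other single library left out took either count below 48.

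Summed over the 59 genes, the level was 2811 and 2451 CPM with palbociclib, 3508 and 2962 CPM with pimasertib and 9071 and 7539 CPM with DMSO. The palbociclib mean was thus 31.7% of the DMSO mean and the pimasertib mean 39.0% of it, and each palbociclib library lay below both pimasertib libraries. Every member's estimate was below 0 with each drug, where 49.6% of all tested genes were with palbociclib and 49.7% with pimasertib. In single genes, both palbociclib libraries lay below both DMSO libraries for all 59 members (23.3% of all tested genes), and both pimasertib libraries did for 58 (32.6% of all tested genes), the exception being KIF18A. Taken by replicate number, the median log2 difference from DMSO was -1.78 and -1.68 with palbociclib and -1.25 and -1.32 with pimasertib in replicates 1 and 2.

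**Figure D2:**
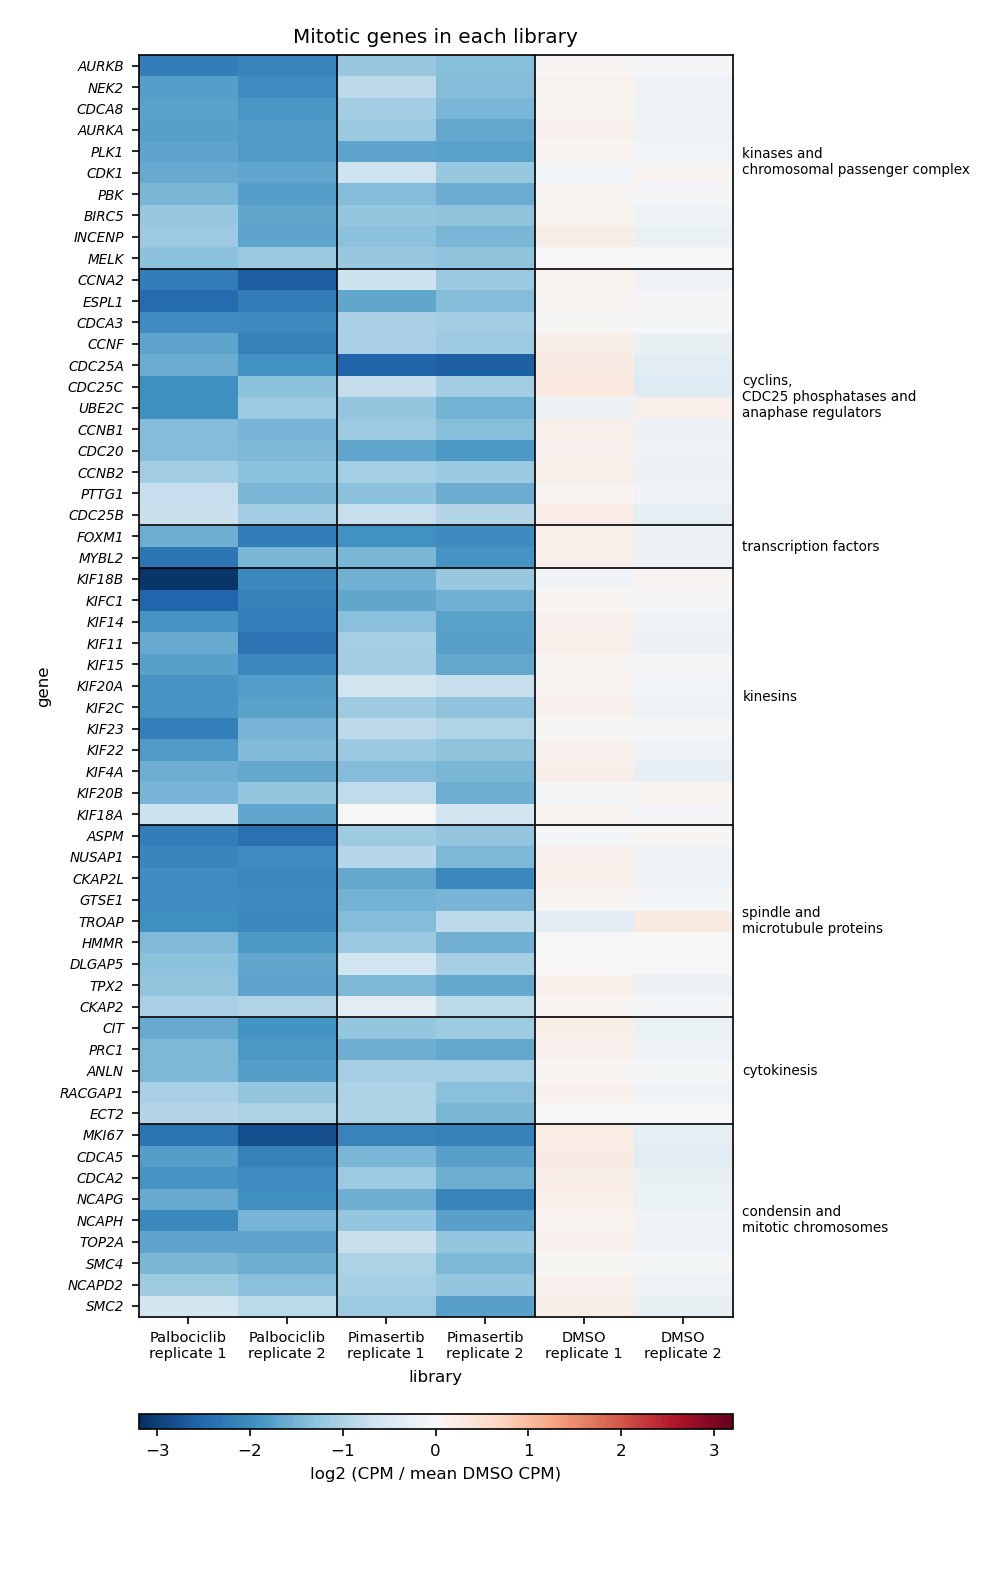
Level of each of the 59 genes (rows, grouped by role) in each library (columns), as log2 of its CPM over the mean DMSO CPM, with blue below and red above that mean. All 59 genes were lower in both palbociclib libraries than in both DMSO libraries, and 58 were in both pimasertib libraries.

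Among the kinases and the chromosomal passenger complex, 10 of 10 genes fell with each drug, and the median log2 fold change was -1.69 with palbociclib and -1.28 with pimasertib. AURKB, the complex's kinase, had 13.2 and 14.3 CPM with palbociclib, 26.5 and 23.9 with pimasertib and 62.7 and 60.3 with DMSO. It had the largest palbociclib change of the 10 (log2 fold change -2.16, SE 0.20, adjusted p 0.000974), and changed by -1.29 with pimasertib (SE 0.2, adjusted p 0.00139). The 3 treatments did not overlap in AURKB, with palbociclib lowest. BIRC5 (survivin), which targets the complex to centromeres, had 16.5 and 12.2 CPM with palbociclib, 16.3 and 15.7 with pimasertib and 41.7 and 35.3 with DMSO, and here the libraries of the drugs overlapped.

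PLK1, the polo kinase of mitotic entry and spindle assembly, had 67.0 and 61.6 CPM with palbociclib, 67.2 and 66.2 with pimasertib and 227 and 206 with DMSO. Its log2 fold change was -1.75 (SE 0.2, adjusted p 0.00174) with palbociclib and -1.7 (SE 0.2, adjusted p 0.000392) with pimasertib, the largest pimasertib change in this group. AURKA, which matures centrosomes and builds the spindle with TPX2, stood at 34.7 and 32.8 CPM with palbociclib, 50.4 and 37.0 with pimasertib and 127 and 102 with DMSO. CDK1, the catalytic partner of cyclin B, stood at 15.1 and 14.7 CPM, 29.3 and 20.1 CPM, and 43.5 and 49.0 CPM in the same order. In CDK1 both pimasertib libraries lay between the palbociclib and the DMSO libraries, with log2 fold changes of -1.64 (palbociclib) and -0.9 (pimasertib). MELK, a kinase of the AMPK family, had the smallest palbociclib change of the 10, with 25.2 and 27.3 CPM, 27.1 and 25.6 CPM and 62.5 and 62.9 CPM. The pimasertib changes of CDK1 (-0.65, adjusted p 0.166) and BIRC5 (-1.23, adjusted p 0.0501) no longer passed without pimasertib replicate 2.

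Of the 12 cyclins, CDC25 phosphatases and anaphase regulators, 10 fell with palbociclib and 11 with pimasertib (median log2 fold change -1.55 and -1.2). Cyclin A2 (CCNA2), the cyclin of S phase and G2, had 31.1 and 23.5 CPM with palbociclib, 90.2 and 63.3 with pimasertib and 156 and 134 with DMSO. Its fold change was the largest of the group with palbociclib (-2.41, SE 0.25, adjusted p 0.00161) and among the smaller ones with pimasertib (-0.91, SE 0.24, adjusted p 0.022). The drugs were closer in the mitotic cyclin CCNB1, with 86.5 and 81.5 CPM, 101 and 89.1 CPM, and 255 and 200 CPM in the same order of treatments. CDC20, the activator of the anaphase-promoting complex, had 92.1 and 89.5 CPM with palbociclib, 76.2 and 68.1 with pimasertib and 267 and 218 with DMSO, with log2 fold changes of -1.42 and -1.75. Both pimasertib libraries were the lower ones, but the drugs did not differ past the threshold (0.33, adjusted p 0.362).

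The 3 CDC25 phosphatases, which activate cyclin-dependent kinases, differed in level. CDC25A, also active at the G1/S boundary, had 20.0 and 15.8 CPM with palbociclib, 10.2 and 9.77 with pimasertib and 72.6 and 47.6 with DMSO. Its pimasertib change was the largest of all 59 genes (-2.59, SE 0.26, adjusted p 0.000158), against -1.75 (SE 0.25, adjusted p 0.00398) with palbociclib. CDC25B had 87.3 and 67.0 CPM with palbociclib, 86.2 and 74.6 with pimasertib and 171 and 116 with DMSO, and its change passed with pimasertib (-0.84, adjusted p 0.0349) but not with palbociclib (-0.9, adjusted p 0.083). CDC25C had only 2.35 and 3.7 CPM, 5.42 and 4.27 CPM, and 11.4 and 6.9 CPM, and its change passed with palbociclib (-1.59, adjusted p 0.0494) and missed with pimasertib (-0.92, adjusted p 0.0986). Compared directly, the drugs differed past the threshold in neither CDC25B (-0.06, adjusted p 0.907) nor CDC25C (-0.67, adjusted p 0.309). The span of CDC25C overlaps that of FAM53C, which has more counts, and the use of strand in counting was not stated in the labels or processing notes.

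PTTG1 (securin), the inhibitor of separase, had 25.4 and 15.2 CPM with palbociclib, 17.0 and 13.9 with pimasertib and 45.0 and 39.2 with DMSO. Its change passed with pimasertib (-1.44, adjusted p 0.00426) and missed with palbociclib (-1.05, adjusted p 0.0593). Separase itself (ESPL1) fell with each drug, to 18.8 and 22.2 CPM with palbociclib and 32.7 and 39.1 with pimasertib, against 108 and 98.3 with DMSO. Several calls rested on 1 library. Without pimasertib replicate 2, the pimasertib changes of CCNA2 (-0.67), CCNB1 (-1.17), CDC25B (-0.72), PTTG1 (-1.3) and CDCA3 (-1.02) no longer passed; without DMSO replicate 1, neither did those of CCNA2 (-0.8) and CDC25B (-0.53), nor the palbociclib change of CDC25C (-1.18), and that of CDC25B with pimasertib was also lost without pimasertib replicate 1 (-0.95). The palbociclib change of CDC25C was lost as well with DESeq2's size factors (-1.57), library totals (-1.54), the stricter filter of 50 counts in 2 libraries (-1.56) or only the 4 libraries compared (-1.57), and without palbociclib replicate 1 (-1.31), pimasertib replicate 1 (-1.59) or pimasertib replicate 2 (-1.58). In the other direction, the palbociclib changes of CDC25B (-1.1) and PTTG1 (-1.47) passed without palbociclib replicate 1, as they did without DMSO replicate 2 (-1.15 in both), where that of CDC25C with pimasertib also passed (-1.24). They passed as well with no filter on low counts (-0.87 for CDC25B and -1.03 for PTTG1) and with DESeq2 (-0.88 and -1.03).

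FOXM1 and MYBL2 (B-MYB), the transcription factors that activate this programme, fell with both drugs. FOXM1 had 74.1 and 47.5 CPM with palbociclib, 57.1 and 54.7 with pimasertib and 246 and 191 with DMSO. MYBL2 had 16.8 and 30.4 CPM, 30.2 and 22.6 CPM, and 93.9 and 72.5 CPM. The libraries of the drugs overlapped in both genes. Log2 fold changes were -1.85 (SE 0.26, adjusted p 0.00342) and -1.97 (SE 0.26, adjusted p 0.000663) for FOXM1 and -1.82 (SE 0.3, adjusted p 0.00727) and -1.65 (SE 0.29, adjusted p 0.00338) for MYBL2, palbociclib first. The pimasertib change of MYBL2 did not pass without pimasertib replicate 2 (-1.45, adjusted p 0.0626).

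Kinesins are motors that move along or depolymerise microtubules. Of 12 mitotic kinesins 11 fell with each drug, and their summed level was 28.0% of the DMSO mean with palbociclib and 43.3% with pimasertib (250 and 257 CPM, 426 and 356 CPM, and 958 and 849 CPM). KIF11 (Eg5), which slides spindle poles apart, had 43.5 and 25.9 CPM with palbociclib, 63.6 and 39.9 with pimasertib and 149 and 118 with DMSO. Its log2 fold change was -1.95 (SE 0.31, adjusted p 0.00605) with palbociclib and -1.37 (SE 0.3, adjusted p 0.00961) with pimasertib. KIFC1, a minus-end motor that clusters spindle poles, had the largest pimasertib change of the 12 (-1.61, SE 0.21, adjusted p 0.000576), with 19.1 and 24.5 CPM, 34.6 and 37.6 CPM, and 114 and 106 CPM.

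KIF18B, which acts on the ends of astral microtubules, had 7.99 and 16.5 CPM with palbociclib, 23.6 and 29.5 with pimasertib and 64.0 and 73.3 with DMSO, and the largest palbociclib change of the 12 (-2.48, SE 0.31, adjusted p 0.00246). KIF20A (MKLP2), which brings the passenger complex to the spindle midzone, had 18.1 and 19.3 CPM with palbociclib, 44.9 and 40.2 with pimasertib and 70.5 and 63.2 with DMSO. Its palbociclib change was -1.84 (SE 0.2, adjusted p 0.00163), while its pimasertib change of -0.65 (SE 0.19, adjusted p 0.0348) was the smallest of the 56 that passed. KIF23 (MKLP1), the motor of centralspindlin, had 18.2 and 29.3 CPM, 46.3 and 42.3 CPM, and 84.0 and 80.3 CPM. KIF18A, which dampens chromosome oscillations, missed with both drugs: it had 16.8 and 8.51 CPM with palbociclib, 27.0 and 17.5 with pimasertib and 28.3 and 25.6 with DMSO (-1.1, adjusted p 0.106, and -0.27, adjusted p 0.573). Pimasertib replicate 1 overlapped the DMSO libraries in KIF18A, and the gene's span overlaps that of METTL15, which has 87.3% of its counts. The span of KIF20A overlaps those of BRD8, with 174% of its counts, and CDC23, with 72.3%. The shared stretches of KIF20A are 268 and 66 bases, and the use of strand in counting is not known.

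Without pimasertib replicate 2, the pimasertib changes of KIF11 (-1.06), KIF18B (-1.53), KIF20A (-0.56) and KIF23 (-0.82) no longer passed, and KIF18A stood at 0.02 (adjusted p 0.991). Without pimasertib replicate 1 those of KIF18B (-1.23), KIF20A (-0.74) and KIF23 (-0.97) were lost, without DMSO replicate 1 those of KIF20A (-0.57) and KIF23 (-0.86), and without palbociclib replicate 2 that of KIF20A (-0.61), which also missed with no filter and with only the 4 libraries compared (-0.61 in both). The palbociclib change of KIF18A passed without palbociclib replicate 1 (-1.66) and when low counts were not filtered (-1.07, adjusted p 0.0024).

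All 9 spindle and microtubule proteins fell with palbociclib, with the lowest palbociclib median of any role (-2.0), and 8 of 9 fell with pimasertib (-1.19). ASPM, a spindle pole protein, had 59.5 and 52.3 CPM with palbociclib, 126 and 115 with pimasertib and 266 and 285 with DMSO (log2 fold change -2.3, SE 0.22, adjusted p 0.000974, and -1.19, SE 0.21, adjusted p 0.0031). NUSAP1, which bundles microtubules near chromosomes, had 15.7 and 16.9 CPM, 35.5 and 24.6 CPM, and 73.5 and 60.9 CPM. In both genes the 3 treatments were separate, in the order palbociclib, pimasertib, DMSO. CKAP2L, a spindle protein that fell most with pimasertib in this group (-1.84, SE 0.23, adjusted p 0.000451), had 22.2 and 21.2 CPM, 28.2 and 21.0 CPM, and 98 and 78.4 CPM, with overlap between the drugs. CKAP2 changed least, with 54.7 and 58.1 CPM with palbociclib, 89.6 and 62.2 with pimasertib and 118 and 108 with DMSO: it passed with palbociclib (-1.0, SE 0.23, adjusted p 0.0388) and missed with pimasertib (-0.57, SE 0.22, adjusted p 0.0904). The palbociclib change of CKAP2 was lost without DMSO replicate 1 (-0.93), palbociclib replicate 1 (-0.96) or palbociclib replicate 2 (-1.01), and the pimasertib change of ASPM without pimasertib replicate 2 (-1.12).

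The 5 cytokinesis genes all fell with each drug (median -1.6 with palbociclib and -1.18 with pimasertib). PRC1, which crosslinks antiparallel microtubules in the midzone, had 63.8 and 48.3 CPM with palbociclib, 58.6 and 55.7 with pimasertib and 193 and 156 with DMSO. Citron kinase (CIT), of the midbody, had 39.3 and 31.9 CPM, 51.4 and 55.2 CPM, and 137 and 105 CPM. Drug libraries overlapped in PRC1 and were apart in CIT. ANLN (anillin), a scaffold of the contractile ring, had 125 and 99.7 CPM with palbociclib, 164 and 161 with pimasertib and 356 and 325 with DMSO. ECT2, a guanine nucleotide exchange factor of the cleavage furrow, had 86.7 and 82.7 CPM, 82.8 and 60 CPM, and 167 and 163 CPM, and was the one with the smallest palbociclib change (-0.96, SE 0.22, adjusted p 0.04). That call was lost without any 1 of 5 libraries, with values from -1 to -0.9, the exception being DMSO replicate 2, and also with library totals (-0.92) or only the 4 libraries compared (-0.95). The pimasertib changes of ECT2 (-0.99) and ANLN (-1.04) no longer passed without pimasertib replicate 2, and that of ANLN was also lost without pimasertib replicate 1 (-1.09).

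Among 9 genes for condensin and mitotic chromosomes, 8 fell with palbociclib and 9 with pimasertib (median -1.74 and -1.43). MKI67 (Ki-67), which coats mitotic chromosomes and is used as a proliferation marker, had 195 and 141 CPM with palbociclib, 225 and 222 with pimasertib and 1172 and 816 with DMSO. Its palbociclib change was the largest of all 59 genes (-2.56, SE 0.28, adjusted p 0.00163), and its pimasertib change was -2.15 (SE 0.27, adjusted p 0.000538). TOP2A, the topoisomerase that untangles sister chromatids, had 126 and 125 CPM, 248 and 172 CPM, and 442 and 365 CPM (-1.69 with palbociclib and -0.94 with pimasertib). The condensin subunit SMC2 was higher in both palbociclib than in both pimasertib libraries, with 122 and 100 CPM with palbociclib, 81.3 and 54.5 with pimasertib and 210 and 155 with DMSO. SMC2 passed with pimasertib (-1.43, SE 0.26, adjusted p 0.00409) and missed with palbociclib (-0.72, SE 0.26, adjusted p 0.173), while its partner SMC4 fell with both (-1.51 and -1.21). The pimasertib changes of TOP2A (-0.69) and SMC2 (-1.16) no longer passed without pimasertib replicate 2, nor did that of TOP2A without DMSO replicate 1 (-0.8).

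**Figure D3:**
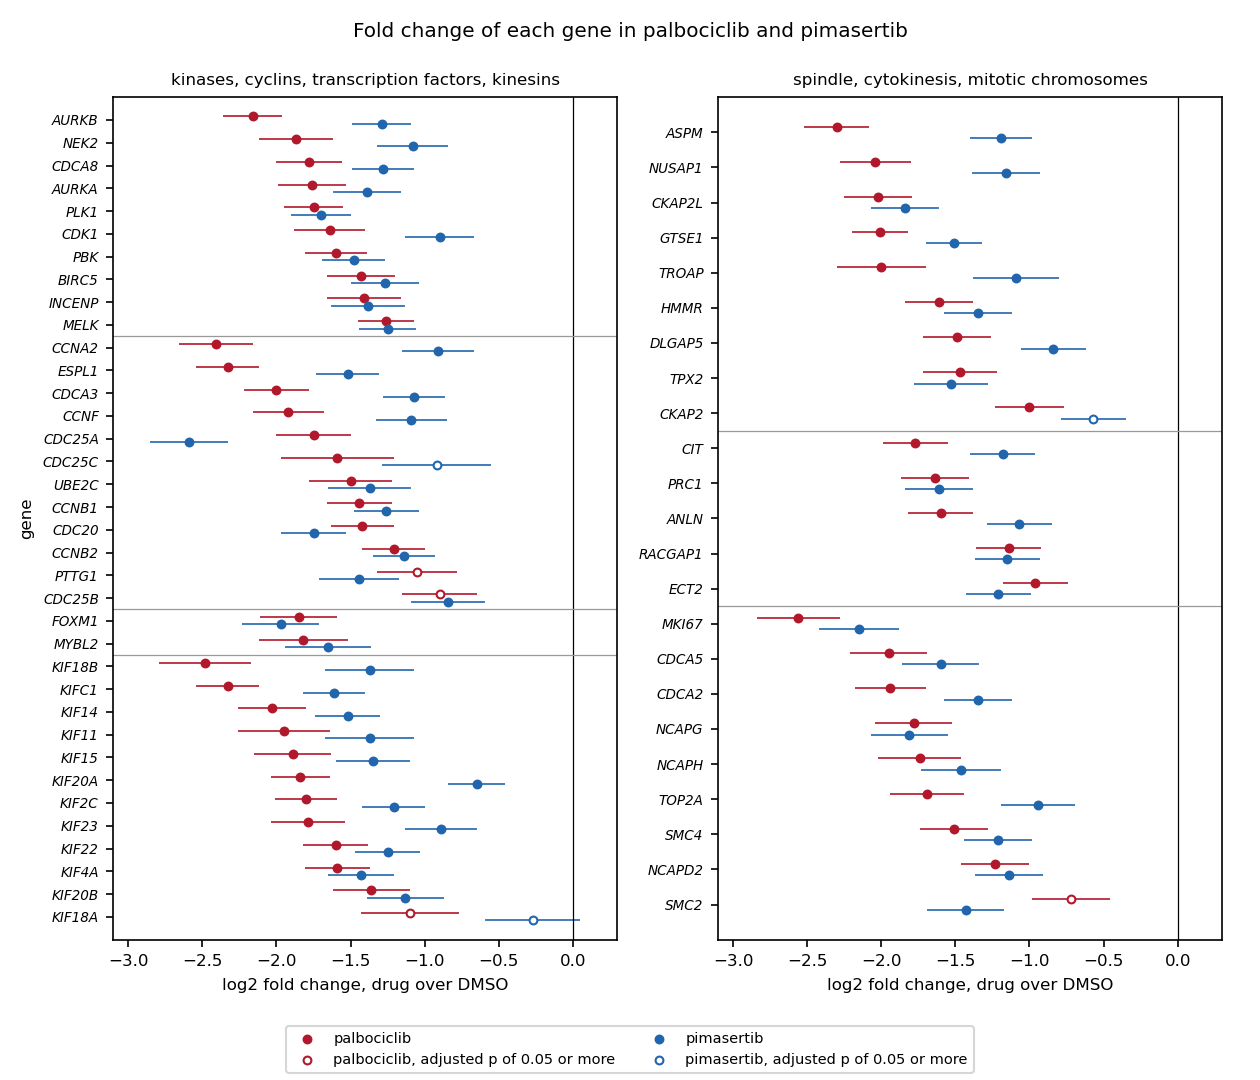
Log2 fold change of each gene over DMSO (x axis; points, with bars of 1 SE) in palbociclib (red) and pimasertib (blue), with genes down the y axis by role and open points for adjusted p of 0.05 or more. All 59 estimates lay below 0 with each drug, with medians of -1.75 and -1.28.

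The drugs were next compared with each other, using the 4 treated libraries for the estimate and all 6 for the spread. Palbociclib gave the lower level for 50 of 59 members, where 51.1% of all tested genes had a log2 fold change of palbociclib over pimasertib below 0. Of the 59, 9 were lower with palbociclib past the threshold (5.07% of all tested genes) and 0 were higher (4.31%). DESeq2 called 12 lower and 0 higher, and at an unadjusted p below 0.05 the counts were 24 and 2 (13.1% and 11.6% of all tested genes). The median log2 fold change was -0.37 (1.3-fold lower; range -1.49 to 0.84), against -0.02 for all tested genes, and by replicate number it was -0.54 and -0.3. The count of 9 depended on single libraries: it was 1 without pimasertib replicate 1, 2 without pimasertib replicate 2 and 5 without palbociclib replicate 1, and the median was -0.19 without pimasertib replicate 1. KIF20A passed in the full fit and in every fit without 1 library, as did 1.24% of all tested genes.

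The 9 genes that were lower with palbociclib than with pimasertib came from several steps of division. They were the S/G2 cyclin CCNA2 (log2 fold change -1.49, SE 0.25, adjusted p 0.00386), the midzone motors KIF20A (-1.18, SE 0.2, adjusted p 0.00404) and KIF23 (-0.9, SE 0.24, adjusted p 0.0442), the kinesin KIF18B (-1.11, SE 0.31, adjusted p 0.0492), and the spindle proteins ASPM (-1.11, SE 0.21, adjusted p 0.00815) and NUSAP1 (-0.88, SE 0.23, adjusted p 0.0407). The others were the passenger kinase AURKB (-0.87, SE 0.2, adjusted p 0.0208), separase ESPL1 (-0.81, SE 0.21, adjusted p 0.0362) and CDCA3 (-0.93, SE 0.22, adjusted p 0.0223), a trigger of mitotic entry that had 8.14 and 8.06 CPM with palbociclib, 15.8 and 15 with pimasertib and 33.1 and 31.9 with DMSO. In all 9, both palbociclib libraries lay below both pimasertib libraries, which held for 34 of the 59 members and 28.8% of all tested genes. In the deposited GRCh37 annotation CCNA2 spans chr4:122737599-122745087 on the minus strand, where it overlaps EXOSC9. KIF20A spans chr5:137514408-137523404 on the plus strand, and its span overlaps those of BRD8, which has more counts, and CDC23. AURKB (chr17:8108056-8113918) and KIF18B (chr17:43002077-43025082), both on the minus strand of chromosome 17, are far apart, as are NUSAP1 (chr15:41624892-41673248) and KIF23 (chr15:69706585-69740764), on the plus strand of chromosome 15.

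Each of these calls apart from KIF20A was lost without at least 1 library. CCNA2 missed without pimasertib replicate 1 (-1.21, adjusted p 0.0508), and ASPM without pimasertib replicate 1 (-1.03) or 2 (-1.17). Without palbociclib replicate 1, the calls of AURKB (-0.81), ESPL1 (-0.69), CDCA3 (-0.93), KIF18B (-0.68), KIF23 (-0.59) and NUSAP1 (-0.83) were lost. The same 6 were lost without pimasertib replicate 1 (AURKB -0.78, ESPL1 -0.92, CDCA3 -0.88, KIF18B -1.25, KIF23 -0.82 and NUSAP1 -0.58) and without pimasertib replicate 2 (AURKB -0.94, ESPL1 -0.67, CDCA3 -0.97, KIF18B -0.94, KIF23 -0.96 and NUSAP1 -1.12). CDCA3 (-0.94) and NUSAP1 (-0.95) were also lost without palbociclib replicate 2. KIF18B also missed with the stricter filter (-1.14). All these estimates stayed below 0.

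**Figure D4:**
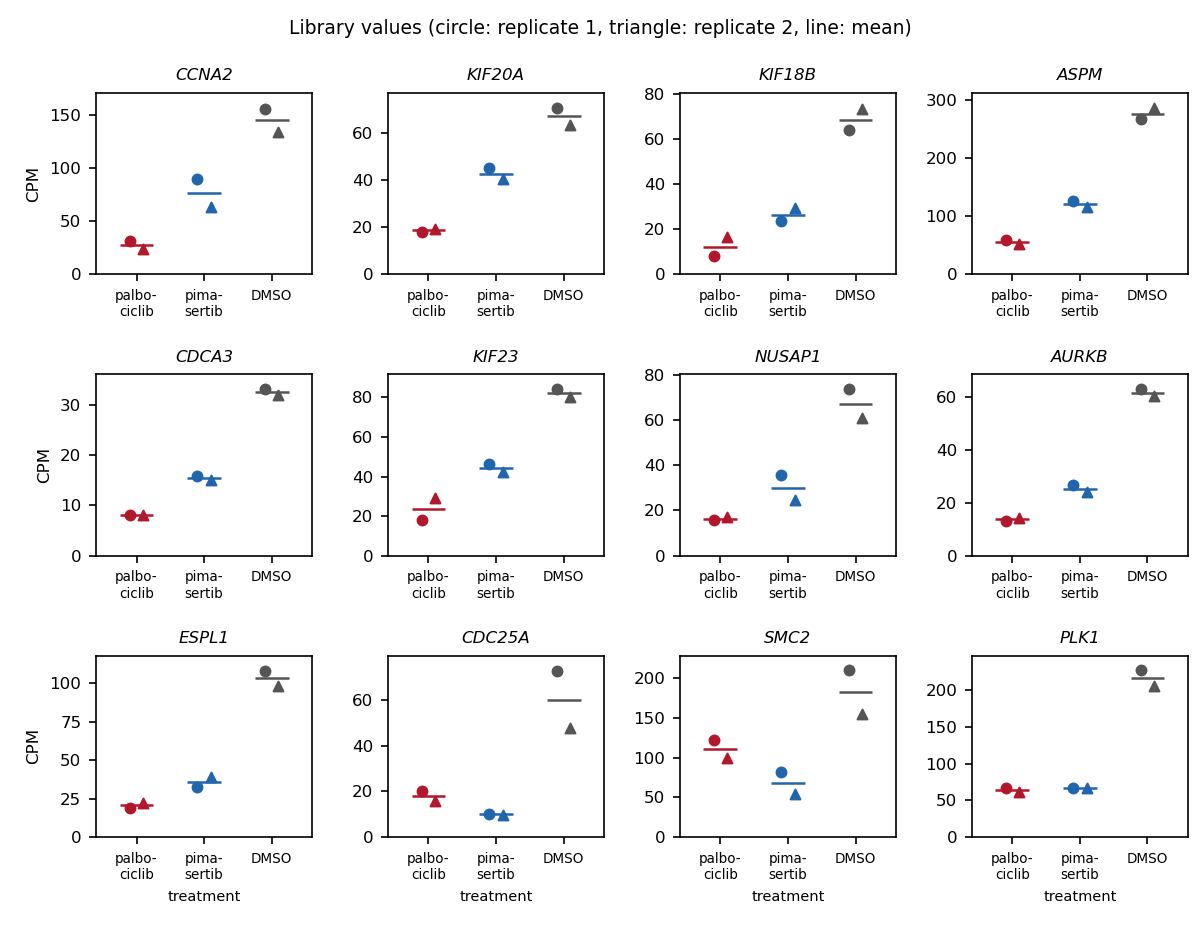
CPM (y axis, from 0) in each library of palbociclib, pimasertib and DMSO (x axis) for the 9 genes called between the drugs and for CDC25A, SMC2 and PLK1; circles are replicate 1, triangles replicate 2, and lines the mean of 2. In the 9 genes both palbociclib libraries lie below both pimasertib libraries, in CDC25A and SMC2 above them, and in PLK1 all 4 lie between 61.6 and 67.2 CPM.

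By role, the kinesins and the spindle proteins had the lowest medians of palbociclib over pimasertib, -0.59 with 3 of 12 called and -0.51 with 2 of 9 called. All 12 kinesin estimates were below 0. Medians were -0.27 for the kinases and passenger complex (1 of 10 called), -0.29 for condensin and mitotic chromosomes (0 of 9), -0.15 for cyclins, CDC25 phosphatases and anaphase regulators (3 of 12), -0.03 for cytokinesis (0 of 5) and -0.02 for the transcription factors (0 of 2). The groups are small and no difference between them was tested.

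Among the 50 genes that did not pass between the drugs, the 95% interval of the log2 fold change included 0 in 33, and stayed within 1 log2 unit of 0 in 31. PLK1 differed by -0.05 (95% interval -0.5 to 0.39), FOXM1 by 0.12 (-0.44 to 0.68), MELK by -0.01 (-0.43 to 0.41) and RACGAP1, the GTPase-activating partner of KIF23 in centralspindlin, by 0.01 (-0.48 to 0.5). These intervals leave room for differences in either direction, so equal levels are not shown. Next below the threshold were genes such as KIFC1 (-0.73, adjusted p 0.0547), the cyclin F gene CCNF (-0.83, adjusted p 0.0592) and NEK2, a kinase of centrosome separation (-0.79, adjusted p 0.0785). CDC25A and SMC2 stood at the other end. Both were higher with palbociclib in both libraries, with 0.84 (0.27 to 1.41, adjusted p 0.0697) for CDC25A and 0.71 (0.14 to 1.29, adjusted p 0.121) for SMC2, and a higher level in both palbociclib libraries was seen in 3 members (these and CDC20) and 27.7% of all tested genes. CDC25A did pass in the fits that left out 1 DMSO library (0.85 without replicate 1, 0.84 without replicate 2) or palbociclib replicate 2 (0.99), with no filter on low counts (0.83, adjusted p 0.0188) and with only the 4 libraries compared (0.84, adjusted p 0.0471).

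**Figure D5:**
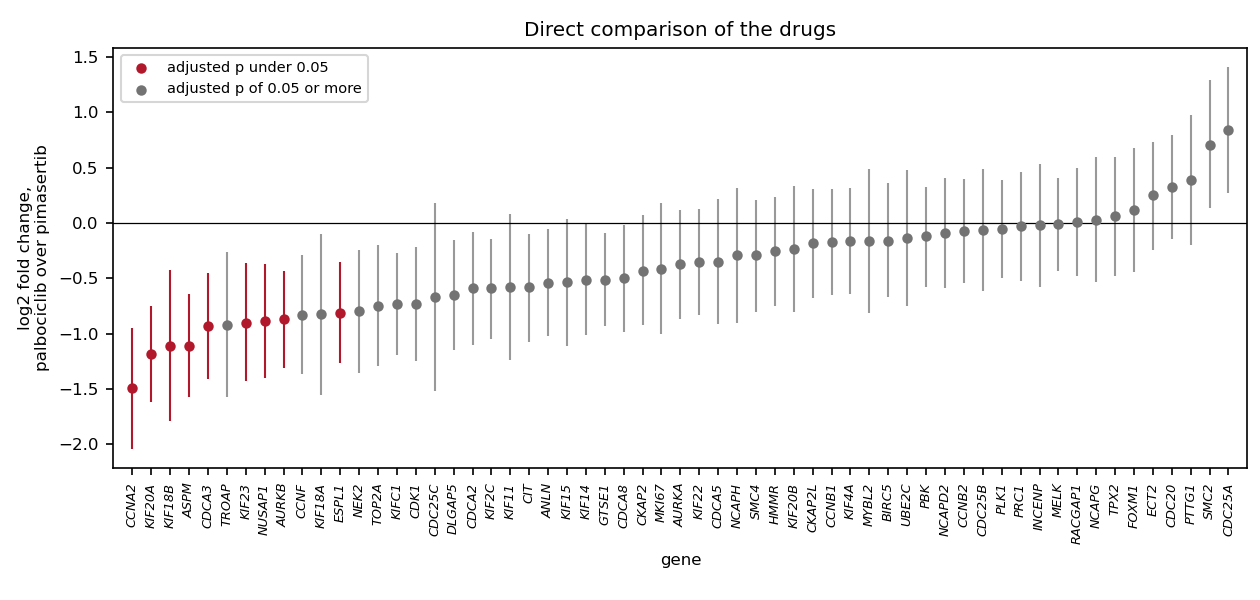
Log2 fold change of palbociclib over pimasertib (y axis; points, with 95% intervals as lines) for the 59 genes (x axis), sorted from lowest to highest, with red for adjusted p under 0.05. The values run from -1.49 for CCNA2 to 0.84 for CDC25A, and 50 of 59 are below 0.

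Other genes of cell division were taken as lists to place the 59 genes beside them. Of 43 centromere, kinetochore and spindle checkpoint genes, 23 fell with palbociclib and 33 with pimasertib (median -1.35 and -1.16), where 2.44% and 11.7% of all tested genes fell. At an unadjusted p below 0.05, 37 fell with each drug (9.58% and 18.7% of all tested genes). None was raised by edgeR, at an unadjusted p below 0.05 or by DESeq2. Between the drugs, 2 of 43 were lower with palbociclib and 0 higher, where 5.07% and 4.31% of all tested genes were. The median of this list between the drugs was -0.18. At an unadjusted p below 0.05, 7 were lower and 4 higher (13.1% and 11.6% of all tested genes). The 2 called were NDC80 (-0.98, adjusted p 0.0375) and NUF2 (-0.77, adjusted p 0.0492), both subunits of the NDC80 complex that grips microtubules. NDC80 had 8.51 and 10.7 CPM with palbociclib, 21.6 and 16.2 with pimasertib and 40.1 and 30.9 with DMSO. The NDC80 call was lost without palbociclib replicate 1 (-0.82), pimasertib replicate 1 (-0.74) or pimasertib replicate 2 (-1.17), and that of NUF2 without any 1 library (-0.88 to -0.67). Of 43 DNA replication and G1/S genes, 34 fell with palbociclib and 40 with pimasertib (median -1.44 and -1.5), including the replication initiation factor MCM10 (-2.36 and -2.29) and the ribonucleotide reductase subunit RRM2 (-2.16 and -2.38). At an unadjusted p below 0.05, 42 of these 43 fell with each drug. Between the drugs, edgeR called 0 of these 43 in either direction, DESeq2 called 0, and 5 were lower and 3 higher at an unadjusted p below 0.05, with a median of 0.06 where the 59 mitotic genes had -0.37. That count of 0 lower was 2 without either DMSO library or with no filter on low counts, and 1 without palbociclib replicate 1, with the stricter filter or with only the 4 libraries compared, while 0 were higher in each of these. Whether the lists differ in this was not tested.

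Relatives of the members were counted in the same way, against the same shares of all tested genes (2.44% lower and 1.11% higher with palbociclib, 11.7% and 11.1% with pimasertib). Of 24 tested kinesins with transport or other roles, 2 fell and 1 rose with palbociclib and 3 fell and 2 rose with pimasertib. Their medians were 0.05 and -0.27. Between the drugs 3 were higher with palbociclib and 1 lower, where 4.31% and 5.07% of all tested genes were, and the median was 0.24. Higher were KIF21B, KIF3C (1.29, adjusted p 0.0042) and KIF13B (0.93, adjusted p 0.0167), and lower was KIF26B (-1.16, adjusted p 0.00626). KIF21B had 14.2 and 13.3 CPM with palbociclib, 5.07 and 4.85 with pimasertib and 52.2 and 32.0 with DMSO, lower with pimasertib than with palbociclib (log2 fold change of palbociclib over pimasertib 1.47, adjusted p 0.00802), a call lost without pimasertib replicate 1 (1.51, adjusted p 0.0707) or 2 (1.44, adjusted p 0.0949). KIF26B rose with both drugs, to 14.7 and 15.5 CPM with palbociclib and 32.9 and 34.9 with pimasertib, against 7.35 and 7.64 with DMSO. Its palbociclib call (1.01, adjusted p 0.03) was lost in 5 of the 6 fits without 1 library (0.99 to 1.04). The call was also lost with only the 4 libraries compared (1.03, adjusted p 0.0865). Of 17 other mitotic kinases, 5 fell and 0 rose with palbociclib, and 6 fell and 2 rose with pimasertib. Between the drugs 2 were lower with palbociclib and 0 higher, where 5.07% and 4.31% of all tested genes were. Those that fell with each drug included PLK4, the kinase of centriole duplication (-2.12 and -1.41), and PKMYT1, which inhibits CDK1 (-2.18 and -1.52). PLK2, a polo kinase also known as a stress-response gene, had 296 and 274 CPM with palbociclib, 504 and 443 with pimasertib and 194 and 169 with DMSO. It rose with pimasertib (1.38, adjusted p 0.00202) and missed with palbociclib (0.65, adjusted p 0.149), where DESeq2 called it (0.67, adjusted p 0.031). STK38 also rose with pimasertib (0.79, adjusted p 0.0233) and was lower with palbociclib than with pimasertib (-0.88, adjusted p 0.0275). WEE1, the other kinase that inhibits CDK1, was lower with palbociclib than with pimasertib (15.3 and 20.5 CPM, against 41.9 and 51.3; -1.38, adjusted p 0.00659), and its DMSO libraries had 29.8 and 42.1 CPM. That call was lost without pimasertib replicate 2 (-1.22, adjusted p 0.085), as was the pimasertib change of PLK4 (-1.21, adjusted p 0.056).

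Of 18 subunits and regulators of the anaphase-promoting complex, 2 fell with each drug, where 2.44% (palbociclib) and 11.7% (pimasertib) of all tested genes did. They were the inhibitor FBXO5 (-1.96 and -1.24) and the ubiquitin-conjugating enzyme UBE2S (-1.19 and -1.89), with medians of -0.1 and -0.15 over the list. The palbociclib change of UBE2S missed in 4 of the 6 fits without 1 library (-1.19 to -0.9), and the pimasertib change of FBXO5 without DMSO replicate 1 (-1.02) or pimasertib replicate 2 (-0.88). Of 16 condensin II and cohesin genes, 5 fell with palbociclib and 6 with pimasertib, and of 24 other cytokinesis and abscission genes 5 and 8 fell while 1 and 3 rose. ARHGEF2, a guanine nucleotide exchange factor bound to microtubules, had 170 and 155 CPM with palbociclib, 50.8 and 51.7 with pimasertib and 188 and 166 with DMSO. It passed with pimasertib (-1.79, adjusted p 0.000347) and missed with palbociclib (-0.12, adjusted p 0.806). Between the drugs it was the 1 gene of this list called higher with palbociclib (1.66, adjusted p 0.000749), and 2 were called lower. Of all tested genes, 4.31% were called higher and 5.07% lower. Of 21 MuvB, DREAM and RB pathway genes, 3 fell with palbociclib and 9 with pimasertib. E2F1, the transcription factor of the G1/S genes, fell with palbociclib (-1.72, adjusted p 0.00319) and with pimasertib (-2.65, adjusted p 9.88e-05). It had 22.2 and 18.1 CPM with palbociclib, 11.2 and 9.96 with pimasertib and 78.3 and 54.7 with DMSO. Compared directly, it was higher with palbociclib than with pimasertib (0.92, adjusted p 0.0392). That difference between the drugs no longer passed without palbociclib replicate 1 (0.77), pimasertib replicate 1 (1.03) or pimasertib replicate 2 (0.84). Of 12 mitotic exit phosphatase genes, edgeR called 0 with palbociclib, 0 at an unadjusted p below 0.05 and 0 by DESeq2, and 2 fell with pimasertib.

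Many counts over these lists hung on 1 library. Without pimasertib replicate 2, those that fell with pimasertib were 10 for the kinetochore list, 23 for replication, 3 each for the other mitotic kinases, for condensin II and cohesin and for the MuvB list, 5 for other cytokinesis, 1 each for the other kinesins and the anaphase-promoting complex, and 0 for the phosphatases. The MuvB count with pimasertib was also 4 without DMSO replicate 1 and 5 without pimasertib replicate 1, and that for condensin II and cohesin 10 without DMSO replicate 2. With palbociclib, the condensin II and cohesin count was 3 without DMSO replicate 1 or palbociclib replicate 2, and the MuvB count 5 without DMSO replicate 2. Between the drugs, the kinetochore list had 0 or 1 gene called lower, and 0 or 1 called higher, whichever library was left out. The remaining counts of 1 to 3 given for these lists each moved by at least 1 without some library, down to 0 for KIF26B, the kinesin that rose with palbociclib.

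In the authors' deposited table, which holds their own comparison of each drug with DMSO, 57 of the 59 genes were called lower with palbociclib, all but KIF18A and SMC2, and 55 with pimasertib, all but CDC25C, CKAP2, KIF18A and KIF20A. Of the members that edgeR called lower, 55 were called in the authors' deposited table for palbociclib and 55 for pimasertib.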

How the data were processed

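Per the submitters' processing notes, the tools were CASAVA, STAR 2.5, HTSeq 0.6.1 and DESeq2, with builds hg19 and GRCh37; the order of steps, the settings and the use of strand are not given in the sources used here. The authors deposited 1 table per drug with raw read counts per gene, FPKM, and, per the file headers, their own adjusted p-values and log2 fold changes, which served only to count calls and their direction. Group means of normalized counts, a signal the authors also deposited, were not used. The tables held 23914 and 24931 genes (26286 in either). DMSO counts were identical in both, and a gene missing from a table was set to 0.

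The test on counts used edgeR 4.0.16 (R 4.3.3): filterByExpr (minimum count 10, total 15; 14839 genes), TMM, 1 robust quasi-likelihood model of 3 groups over 6 libraries, two-sided tests, and p-values adjusted by Benjamini-Hochberg across the tested genes, called below 0.05. The SE is the absolute log2 fold change over the square root of F, and intervals are from the t distribution with the fit's degrees of freedom. CPM are counts over TMM-scaled totals. The floor of 3 counts takes in counting error alone, as duplicates from PCR are not independent molecules. Alternatives were other scalings, filters, DESeq2 1.42.0, 4-library fits, a replicate block and leaving out each library. The code was tested on simulated data.

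The members and lists were chosen with earlier results of these data known. Named genes are, per role, the most and least changed with each drug, all members not called with a drug, all called between the drugs, and AURKA, AURKB, PLK1, CDK1, BIRC5, CCNB1, CDC20, FOXM1, MYBL2, KIF11, TOP2A and MKI67 whatever their values; others were named after their values were seen. Septin symbols, which the tables hold as dates, were matched by Ensembl ID. Another gene's span overlaps that of 28 members, and in 11 it has at least 10% of the member's counts; besides genes named beside their values, these are PBK, FOXM1, CDCA3, KIF4A, KIF15, NCAPG and NCAPD2.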

Additional observations from a re-analysis of the deposited data

Results flagged for a closer look

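Under the contrast with DMSO the drugs differed in 9 of the 59 genes by a test of the difference itself, the log2 fold change of palbociclib over pimasertib with an adjusted p below 0.05 in edgeR's quasi-likelihood test. All were lower with palbociclib in both of its libraries, and that log2 fold change was -1.49 in CCNA2, -1.18 in KIF20A, -1.11 in ASPM, -1.11 in KIF18B, -0.93 in CDCA3, -0.9 in KIF23, -0.88 in NUSAP1, -0.87 in AURKB and -0.81 in ESPL1. The adjusted p ran from 0.00386 for CCNA2 to 0.0492 for KIF18B. With 2 libraries per group, single samples were not examined for outlying values.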

How the results depend on the processing

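With palbociclib, 52 to 59 members fell under the other settings and 48 to 57 without 1 library, with a median log2 fold change of -1.73 to -1.71 and, without 1 library, -1.82 to -1.61. With pimasertib, 55 to 58 fell under the other settings and 25 to 56 without 1 library, with a median of -1.46 to -1.17 without 1 library and -1.23 with the stricter filter. Lower with palbociclib than with pimasertib were 16 members with no filter on low counts, 26 with a replicate block, 9 to 12 under the other settings and 1 to 12 without 1 library. Higher were 1 with no filter, 1 with only the 4 libraries compared, 2 with the replicate block (CDC25A and SMC2) and 0 to 1 without 1 library. That median was -0.52 to -0.19 without 1 library. One named gene changed direction: KIF18A with pimasertib, 0.02 without pimasertib replicate 2 and -0.63 without pimasertib replicate 1. Of the values of named genes against DMSO under these settings, 384 kept their side of the threshold with palbociclib, 14 newly passed and 18 no longer did. With pimasertib the numbers were 382, 3 and 30. Between the drugs only the genes called in the full fit, CDC25A and SMC2 were followed, with 112, 7 and 24. Other members that newly passed between the drugs are in the counts of members above but not in these 7. The causes were not tested, though a fit without 1 library has fewer samples.

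Replicate numbers are shared by the groups but are not said to mark a shared culture or day. Deviations of same-numbered libraries correlated across genes with r = 0.397 (palbociclib and DMSO), 0.351 (pimasertib and DMSO) and 0.345 (palbociclib and pimasertib). With the replicate block 59 and 58 members fell with palbociclib and pimasertib. It brought past the threshold the palbociclib changes of CDC25B (-0.88), PTTG1 (-1.08), KIF18A (-1.16) and SMC2 (-0.7), and put CDC25A (0.83, adjusted p 0.00262) and SMC2 (0.73, adjusted p 0.000514) higher with palbociclib than with pimasertib. Between the drugs it called 6 replication and G1/S genes lower and 3 higher.

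For other lists the block and the fits without 1 library were chosen after seeing the data. The median of all tested genes moved by over 0.1 in 1 case, to 0.113 for pimasertib with no filter. With 2 libraries per group and 3 counts at 0.168 to 0.22 CPM, low genes such as CDC25C carry the widest errors.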
